A study of Neurospora crassa with 54 samples.

Results

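The genes gh61-9 (NCU05969) and neg-1 (NCU04395) encode secreted enzymes of the filamentous fungus Neurospora crassa that act on polysaccharides. They are 2 of the 10398 genes in the deposited count table, where each was found by its chromosome, start and end, and both carry their symbol in the RefSeq gene table. Both were chosen by their log2 fold changes between strains in these same libraries, neg-1 among the genes that were lower when both deletions were set against the H2A.Z deletion alone. Their own differences between strains are therefore given as descriptions, with no test.

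RNA was sequenced from mycelium of 4 strains with 3 libraries each, in a study of the histone variant H2A.Z and of histone methylation. The strains were ∆hH2Az;∆set-7, which lacks both the H2A.Z gene hH2Az and the methyltransferase gene set-7 and is called the double deletion here, ∆hH2Az, ∆set-7 and the wild type. All were grown alike, for 12 h at 30 °C under constant light in VMM medium containing 2% glucose. The labels give 1 strain code per genotype, so the genotype and any other difference between those 4 strains cannot be told apart, and they do not say that the 3 libraries came from separate cultures, so the p-values measure the spread between these libraries only.

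The gh61 family holds lytic polysaccharide monooxygenases, copper enzymes that cut cellulose chains by oxidation and so open crystalline cellulose to the classical cellulases. In Neurospora such enzymes are made on plant cell wall material under the transcription factors CLR-1 and CLR-2, while glucose holds them low through the repressor CRE-1. The product of neg-1 is an endo-glucanase of glycoside hydrolase family GH30 that cuts the beta-1,6 linkages found in fungal cell wall glucan. H2A.Z replaces histone H2A in some nucleosomes, often near gene starts, and SET-7 is the enzyme that methylates lysine 27 of histone H3, a mark of silent genes.

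Between 13581416 and 19720473 reads were assigned to genes per library. Levels are given as CPM, the reads of a gene scaled to a common library size after TMM normalization. Replicates 1 and 2 of each strain carry the tag 920 in the labels and replicate 3 carries another, without a statement of what the tags mean. The third libraries stood apart: between 2 libraries of 1 strain the chi-square per gene was 25.5 to 45.3 when both carried 920 and 136 to 351 when 1 of them was replicate 3. Reads on the deleted genes were reduced but not absent. hH2Az had 23.1 to 37.8 CPM in the double deletion, 16.7 to 32.5 CPM in ∆hH2Az, 78.8 to 105 CPM in ∆set-7 and 65.6 to 76.9 CPM in the wild type. This gene model overlaps 2 genes on the other strand, and the counting did not use strand. set-7 had 3.13 to 5.15 CPM in the double deletion, 8.32 to 12.5 CPM in ∆hH2Az, 2.71 to 3.92 CPM in ∆set-7 and 7.85 to 9.62 CPM in the wild type. The labels do not say which parts of the 2 genes were deleted.

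On the NC12 assembly gh61-9 lies on the minus strand of chromosome VI, from 3273186 to 3276449, as 1 exon of 3264 bases, 886.0 kb from the end of the annotated genes of that chromosome. Its start faces NCU05968, which runs the other way from a gap of 429 bases, and behind its end NCU10045 follows on the same strand after 1277 bases. neg-1 lies on the minus strand of chromosome IV, from 3501796 to 3503512, as 1 exon of 1717 bases. Its gene end meets that of NCU04396 across 202 bases, and its start is 1532 bases from that of NCU04394. Neither gene overlaps another annotated gene, so no annotated gene on the other strand shares their positions, and neither is near a chromosome end. Reads were not counted by strand, so transcripts outside the annotation were not told apart.

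gh61-9 was low in both strains without H2A.Z and high in both strains that keep it. It had 10.3, 11.8 and 14.8 CPM in the 3 libraries of the double deletion. It had 16.6, 22.1 and 13.3 CPM in ∆hH2Az. It had 138, 152 and 148 CPM in ∆set-7, against 89.8, 106 and 75.2 CPM in the wild type. All 6 libraries without H2A.Z thus lay below all 6 libraries with it, and ∆set-7 lay above the wild type without overlap. The means were 12.3 ± 2.29 CPM in the double deletion, 17.3 ± 4.40 CPM in ∆hH2Az, 146 ± 7.22 CPM in ∆set-7 and 90.5 ± 15.6 CPM in the wild type (SD, n = 3 each). The order of strains was ∆set-7, wild type, ∆hH2Az and double deletion, and only the last pair overlapped. Behind these levels stood 606 reads in the double deletion, 1058 in ∆hH2Az, 7101 in ∆set-7 and 3749 in the wild type. Per kb of exon, which allows levels of different genes to be compared, gh61-9 stood above 27.6% of the tested genes in the double deletion, 34.4% in ∆hH2Az, 81.1% in ∆set-7 and 73.0% in the wild type.

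**Figure D1:**
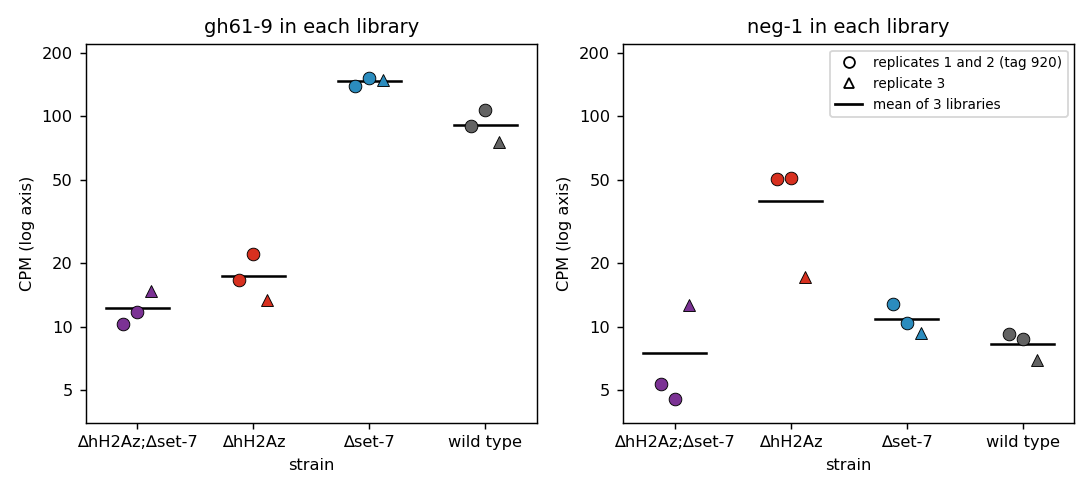
Level of gh61-9 (left) and neg-1 (right) in each of the 12 libraries, in CPM on a log axis, with strains along the horizontal axis, circles for replicates 1 and 2, triangles for replicate 3 and a bar at the mean of 3 libraries. gh61-9 is at 10.3 to 22.1 CPM in both strains without H2A.Z and at 75.2 to 152 CPM in the others; neg-1 is at 17.3 to 51.1 CPM in ∆hH2Az and at 4.55 to 12.8 CPM elsewhere.

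Loss of H2A.Z went with a 5.22-fold lower level of gh61-9 in ∆hH2Az than in the wild type, a log2 fold change of -2.38 (SE 0.220). The 3 libraries of ∆hH2Az were all below those of the wild type, a separation downward that 23.1% of the 8372 tested genes showed, and 186 genes had a lower fold change. The log2 difference was -2.35 between the libraries tagged 920 and -2.50 between the third libraries. The same loss in a strain without SET-7 gave a log2 fold change of -3.57 (SE 0.221) in the double deletion against ∆set-7, or 11.9-fold lower. Here too the groups did not overlap, as for 21.8% of tested genes in that direction, and 24 genes had a lower fold change. Within tags it was -3.72 for 920 and -3.33 for replicate 3.

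Loss of SET-7 alone went with a higher gh61-9 level, by 0.69 on the log2 scale (SE 0.219) in ∆set-7 against the wild type, a 1.62-fold difference. All 3 libraries of ∆set-7 lay above those of the wild type, as did 8.19% of tested genes, and the log2 difference was 0.57 within tag 920 and 0.98 within replicate 3. Where H2A.Z was absent as well, the double deletion against ∆hH2Az had a log2 fold change of -0.50 (SE 0.223) with overlapping libraries. Its sign depended on the tag, at -0.80 within 920 and 0.15 within replicate 3. The difference between those values, the departure from additivity of the 2 deletions on the log2 scale, was -1.19 (SE 0.312), at -1.37 within tag 920 and -0.83 within replicate 3. Against the wild type the double deletion was 7.36-fold lower, at -2.88 (SE 0.221) on the log2 scale without overlap, a downward separation shared by 23.2% of tested genes.

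neg-1 had a different pattern, with its high level in ∆hH2Az alone. It had 5.34, 4.55 and 12.7 CPM in the double deletion. It had 50.4, 51.1 and 17.3 CPM in ∆hH2Az. It had 12.8, 10.4 and 9.35 CPM in ∆set-7, against 9.19, 8.70 and 6.99 CPM in the wild type. The libraries of ∆hH2Az were above all 9 others, while the double deletion overlapped ∆set-7 and the wild type. The means were 7.53 ± 4.50 CPM in the double deletion, 39.6 ± 19.3 CPM in ∆hH2Az, 10.8 ± 1.75 CPM in ∆set-7 and 8.29 ± 1.16 CPM in the wild type (SD, n = 3 each), from 357, 2415, 523 and 343 reads in that order. In both strains without H2A.Z replicate 3 was far from the pair tagged 920, lower in ∆hH2Az and higher in the double deletion, so the highest library was 2.96 times the lowest in ∆hH2Az and 2.80 times in the double deletion, against 1.37 times in ∆set-7 and 1.32 times in the wild type.

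In ∆hH2Az neg-1 was 4.78-fold above the wild type, a log2 fold change of 2.26 (SE 0.435). All 3 libraries were higher, as for 23.8% of tested genes, and the log2 difference was 2.50 within tag 920 and 1.31 within replicate 3. Without SET-7 as well this difference was not seen. The double deletion against the wild type had a log2 fold change of -0.14 (SE 0.442) with overlapping libraries, at -0.86 within tag 920 and 0.86 within replicate 3, and leaving out replicate 1 or 2 of the double deletion turned it to 0.05 or 0.12. The double deletion against ∆set-7 had -0.53 (SE 0.439), again overlapping, at -1.23 within tag 920 and 0.44 within replicate 3.

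The double deletion against ∆hH2Az had a neg-1 level 5.27-fold lower, a log2 fold change of -2.40 (SE 0.434). The groups did not overlap, as for 6.04% of tested genes in that direction, and 31 genes had a lower fold change, but the size differed by tag, at -3.36 within 920 and -0.44 within replicate 3. Loss of SET-7 alone went with a log2 fold change of 0.39 (SE 0.440) in ∆set-7 against the wild type, with the 3 libraries just above, as for 8.19% of tested genes, at 0.36 within tag 920 and 0.42 within replicate 3. The departure from additivity was -2.79 (SE 0.618), at -3.73 within tag 920 and -0.86 within replicate 3. In bulk RNA, fewer cells with an active gene and less RNA per cell cannot be told apart, for neg-1 and for gh61-9.

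**Figure D2:**
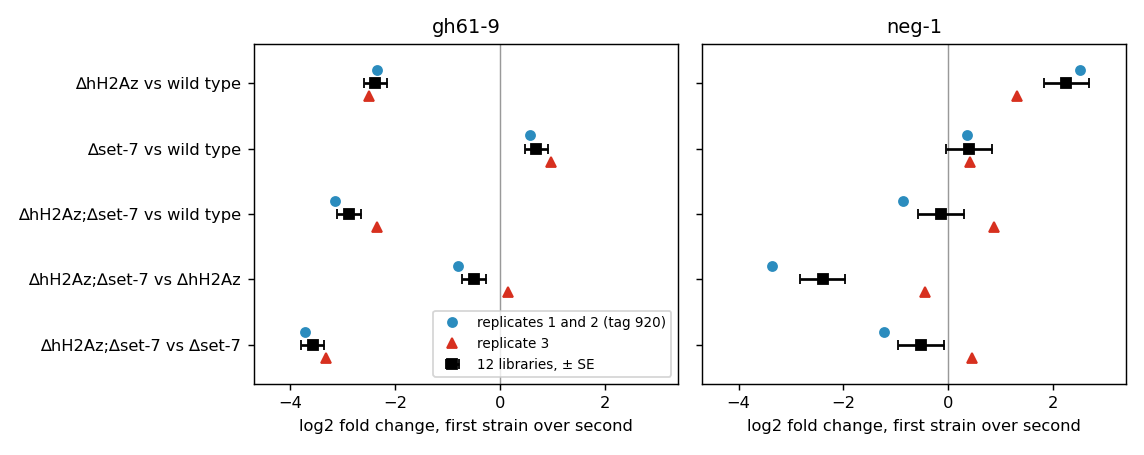
Log2 fold change of gh61-9 (left) and neg-1 (right) in 5 comparisons of strains, first strain over second, as black squares with the SE from all 12 libraries, blue circles for the libraries tagged 920 and red triangles for replicate 3. For gh61-9 the 3 comparisons that involve H2A.Z loss stay between -3.72 and -2.35 in either tag; for neg-1 the double deletion against ∆hH2Az is at -3.36 in tag 920 and at -0.44 in replicate 3.

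Set side by side per kb of exon, neg-1 had 4.39 CPM per kb in the double deletion, 23.1 in ∆hH2Az, 6.31 in ∆set-7 and 4.83 in the wild type. gh61-9 had 3.77, 5.31, 44.8 and 27.7 CPM per kb in the same strains. gh61-9 was above neg-1 per kb in all 6 libraries with H2A.Z and in replicates 1 and 2 of the double deletion, and below it in replicate 3 of that strain and in all 3 libraries of ∆hH2Az. Over the 12 libraries Pearson's r between the log2 CPM of the 2 genes was -0.174, a description of libraries that share strain and tag.

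The gh61 family was described through its 13 other genes in the table, of which 10 had enough reads to be tested. In ∆hH2Az against the wild type, by edgeR's quasi-likelihood test with Benjamini-Hochberg adjustment at 0.05, 4 of the 10 fell and 1 rose, where 31.1% of all tested genes were called, 1357 higher and 1247 lower, or 1114 higher and 1561 lower under upper-quartile scaling. Their median log2 fold change was -1.27, beside 0.01 for all tested genes. In the double deletion against the wild type 5 fell and 1 rose (30.5% of all genes called), and against ∆set-7 6 fell and 1 rose (29.7% called), with list medians of -1.20 and -1.89. Of all genes called against ∆set-7, 1227 were higher and 1259 lower, or 919 higher and 1625 lower under upper-quartile scaling. In ∆set-7 against the wild type 0 of the 10 were called by edgeR, DESeq2 or limma-voom, and 1 had an unadjusted edgeR p under 0.05, while edgeR called 1.03% of all genes.

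NCU02344, another family member, had 5.76, 5.76 and 6.11 CPM in the double deletion. It had 6.07, 8.53 and 6.14 CPM in ∆hH2Az. It had 58.0, 68.7 and 38.3 CPM in ∆set-7, against 47.3, 62.4 and 43.8 CPM in the wild type. The strains without H2A.Z were again below the others in every library. The log2 fold change was -2.89 in ∆hH2Az (SE 0.245, adjusted p = 2.28e-05) and -3.12 in the double deletion (SE 0.247, adjusted p = 1.57e-05) against the wild type, and the calls held in all 22 alternative settings. gh61-2 averaged 1.80 ± 0.551 CPM in the double deletion, 1.93 ± 0.856 CPM in ∆hH2Az, 18.4 ± 2.68 CPM in ∆set-7 and 10.1 ± 1.15 CPM in the wild type (SD, n = 3 each). It fell by 2.38 on the log2 scale in ∆hH2Az (adjusted p = 0.000316) and by 2.48 in the double deletion (adjusted p = 0.000288) against the wild type. In ∆set-7 its log2 fold change of 0.87 over the wild type missed the threshold (SE 0.303, adjusted p = 0.407), beside 0.69 for gh61-9.

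NCU07898 fell to 0.459 ± 0.133 CPM in the double deletion, against 3.24 ± 1.23 CPM in the wild type, a log2 fold change of -2.79 (adjusted p = 0.00233). Its call in ∆hH2Az (log2 fold change -1.45, adjusted p = 0.0366) was lost in 6 of 21 alternatives, among them the fits without ∆hH2Az replicate 2 or 3, ∆set-7 replicate 1 or wild-type replicate 1 or 2, with adjusted p up to 0.131. gh61-6 fell by 1.44 in the double deletion against the wild type (adjusted p = 0.0204) and by 2.14 against ∆set-7 (adjusted p = 0.00274). The first of these calls was lost without replicate 1 or 2 of the double deletion or of the wild type, with adjusted p up to 0.0832. gh61-10 and gh61-11, which average under 1 CPM and were added to the description after their values were seen, made up the rest of the falls. gh61-10 fell in ∆hH2Az (log2 fold change -1.57, adjusted p = 0.0484, lost in 14 of 21 alternatives, any 1 library of ∆hH2Az or the double deletion left out among them, with adjusted p up to 0.154) and in the double deletion (-2.72, adjusted p = 0.00709, lost in 0 of 21). gh61-11 was called in the double deletion against ∆set-7 (-1.63, adjusted p = 0.0256), a call lost without replicate 1 or 3 of either strain with adjusted p up to 0.0922. The count of family calls in ∆hH2Az against the wild type was between 2 and 9 over the alternatives. It was 9 with the libraries tagged 920 alone, 3 without ∆hH2Az replicate 1, and 2 without ∆hH2Az replicate 2, ∆set-7 replicate 1 or wild-type replicate 1 or 2. The all-gene calls moved the same way. They were 4648 of 8414 tested with the libraries tagged 920 alone and 1636 to 2358 of 8459 to 8488 in those other fits, beside 2604 of 8372 with all libraries.

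gh61-5 went the other way. It had 28.7, 26.1 and 61.8 CPM in the double deletion. It had 5.64, 6.28 and 4.94 CPM in ∆hH2Az. It had 4.49, 5.12 and 3.48 CPM in ∆set-7, against 2.95, 3.46 and 1.91 CPM in the wild type. The double deletion stood alone at the high level. gh61-5 rose by 2.79 on the log2 scale in the double deletion against ∆hH2Az (SE 0.337, adjusted p = 0.00126), in a comparison where 1.45% of tested genes were called, and this was the single family call there. Its rise over the wild type was 3.81 in the double deletion (SE 0.350, adjusted p = 3.92e-05). In ∆hH2Az the value was 1.03 (adjusted p = 0.0468), a call lost in 13 of 22 alternatives, among them the fits without any 1 library of ∆hH2Az or of the wild type or without ∆set-7 replicate 1 or 2, with adjusted p up to 0.152. gh61-5 lies on chromosome III, 29.6 kb from the end of the annotated genes, whereas the other family members, gh61-9 among them, are 394.3 kb or more from an end. gh61-1, gh61-3 and NCU07974 were called in none of the 5 comparisons, with log2 fold changes against the wild type between -0.61 and 0.45, and NCU07974 overlaps another gene. gh61-4, gh61-7 and gh61-8 had 5, 68 and 80 reads over the 12 libraries and were not tested.

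**Figure D3:**
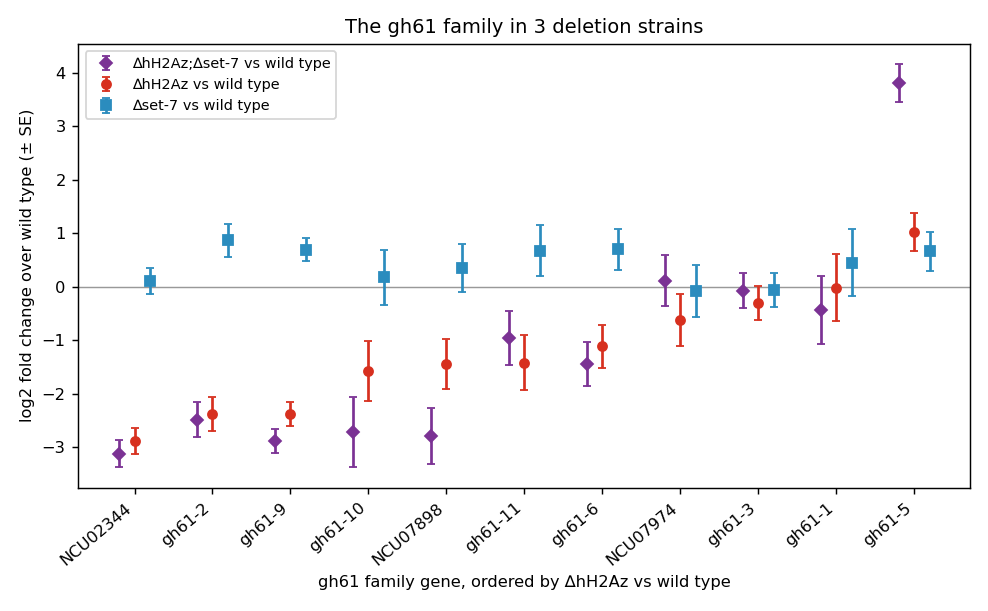
Log2 fold change over the wild type, with its SE, of gh61-9 and the 10 other tested gh61 genes in the double deletion (purple diamonds), ∆hH2Az (red circles) and ∆set-7 (blue squares), ordered by the value in ∆hH2Az. NCU02344, gh61-2 and gh61-9 lie at -2.38 or below in both strains without H2A.Z, and gh61-5 reaches 3.81 in the double deletion.

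Genes that cut cellulose after or beside the monooxygenases gave calls in both directions. Of 8 genes for cellulases, beta-glucosidases and cellobiose dehydrogenase, all tested, 3 rose and 0 fell in ∆hH2Az against the wild type, where 31.1% of all genes were called, and 2 rose and 2 fell in the double deletion, where 30.5% were. The first count was 5 without ∆hH2Az replicate 3, and the second was 1 or 2 without any 1 library of the double deletion or of the wild type. Of all genes 2642 were called in the first of these fits, beside 2604 with all libraries, and 1618 to 2332 in the others, beside 2551. gh5-1, an endoglucanase, had 26.1, 24.8 and 47.6 CPM in the double deletion and 25.5, 29.4 and 41.3 CPM in ∆hH2Az. It had 0.822, 1.30 and 0.774 CPM in ∆set-7, against 0.759, 1.15 and 0.404 CPM in the wild type. Its log2 fold change over the wild type was 5.43 in the double deletion (SE 0.412, adjusted p = 1.37e-05) and 5.39 in ∆hH2Az (SE 0.412, adjusted p = 1.44e-05), called in all 22 alternatives. The beta-glucosidase gene gh1-1 rose by 2.33 in ∆hH2Az (adjusted p = 0.00429) and by 1.54 in the double deletion (adjusted p = 0.0317, up to 0.113 without replicate 1 or 3 of the double deletion or replicate 1 or 2 of the wild type). gh3-4, another beta-glucosidase gene, was called at 3.20 (adjusted p = 0.0315) with 22.3, 17.7 and 1.87 CPM in ∆hH2Az, so that its libraries overlapped those of the wild type. This call was lost without replicate 1 or 2 of ∆hH2Az or any library of the wild type, with adjusted p up to 0.105. In the double deletion cbh-1, a cellobiohydrolase gene, and cdh-1, for cellobiose dehydrogenase, fell by 1.43 (adjusted p = 0.0296) and 1.16 (adjusted p = 0.0289) against the wild type, and both calls were lost without any 1 library of the wild type. The cbh-1 call also needed replicates 1 and 2 of the double deletion, and the cdh-1 call replicates 2 and 3, with adjusted p up to 0.0984 for cbh-1 and 0.0755 for cdh-1.

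Among 6 regulators of these enzymes, clr-1 was the 1 called in ∆hH2Az, at 49.9 ± 14.9 CPM against 18.1 ± 5.00 CPM in the wild type (log2 fold change 1.46, adjusted p = 0.0211, SD, n = 3 each). Of all tested genes 31.1% were called in that comparison. In the double deletion against the wild type, where 30.5% of all genes were called, 3 rose: xlr-1, the activator of xylan genes (1.35, adjusted p = 0.0302), clr-2 (1.13, adjusted p = 0.0356) and col-26, a regulator of starch and glucose responses (0.81, adjusted p = 0.0258). Each of these 4 calls was lost when some single libraries were left out. For clr-1 these were replicate 1 or 2 of ∆hH2Az and 2 or 3 of the wild type, with adjusted p up to 0.0749. For xlr-1 they were replicate 1 or 2 of the double deletion and any of the wild type, with adjusted p up to 0.0944. For col-26 they were replicate 3 of the double deletion and any of the wild type, with adjusted p up to 0.0860. The clr-2 call was lost in 9 of 21 alternatives, without any library of the double deletion and without replicate 1 or 2 of ∆hH2Az or of the wild type among them, with adjusted p up to 0.136. In the double deletion against ∆set-7, where 29.7% of all genes were called, clr-2, xlr-1 and col-26 rose and vib-1, a regulator that also acts in self recognition, fell by 0.59 (adjusted p = 0.0471). There the clr-2 call held in all 21 alternatives, the xlr-1 call was lost in 10 of 21 with adjusted p up to 0.120, 7 of them with 1 library left out, and the col-26 call was lost in 3 of 22, without ∆set-7 replicate 1 or 2 among them. The vib-1 call was lost in 13 of 22 alternatives, 10 of them with 1 library left out, with adjusted p up to 0.161. cre-1, the carbon repressor, was called in none of the 5 comparisons and averaged 195 ± 96.7 CPM in the double deletion, 182 ± 4.20 CPM in ∆hH2Az, 162 ± 49.1 CPM in ∆set-7 and 148 ± 22.2 CPM in the wild type. In ∆set-7 against the wild type and in the double deletion against ∆hH2Az 0 of the 6 were called by edgeR, DESeq2 or limma-voom, and 0 had an unadjusted edgeR p under 0.05. Of all tested genes edgeR called 1.03% and 1.45% in those comparisons.

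Of 68 other genes with a glycoside hydrolase symbol, 61 were tested. The list takes in some of the cellulose genes counted above, gh1-1, gh3-4 and gh5-1 among them, so their calls are counted in both. In ∆hH2Az against the wild type 14 rose and 9 fell (31.1% of all genes called), with a median of -0.05, in the double deletion against the wild type 8 rose and 8 fell (30.5%), and in ∆set-7 against the wild type 1 rose (1.03%). The count in ∆hH2Az was 12 to 15 without replicate 1 or 2 of ∆hH2Az or of the wild type, against 23 with all libraries. The all-gene count was 1636 to 1820 in those fits, against 2604. The gene called in ∆set-7 was gh18-4, of the chitinase family GH18, at 7.07 ± 0.821 CPM in ∆set-7 against 1.90 ± 0.208 CPM in the wild type (log2 fold change 1.89, adjusted p = 0.0162). The call was lost without replicate 1 or 3 of ∆set-7 or any library of the wild type, with adjusted p up to 0.105. The largest change in ∆hH2Az was that of gh7-4, at 5.71 (SE 1.13, adjusted p = 0.00343), with overlapping libraries and an adjusted p of 0.114 by limma-voom. gh13-2 rose by 3.43 in the double deletion against the wild type (adjusted p = 0.000286), and gh3-6 rose by 2.96 in the double deletion against ∆set-7 (adjusted p = 0.000671).

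neg-1 acts on glucan of the fungal wall, so genes that build and remodel that wall were counted beside it. Of 27 such genes, all tested, 3 rose and 7 fell in ∆hH2Az against the wild type (31.1% of all genes called), and 2 rose and 4 fell in the double deletion (30.5%). Without ∆hH2Az replicate 1 the count in ∆hH2Az was 6, and the all-gene count was 1750, beside 2604 with all libraries. gel-1, a glucanosyltransferase gene, averaged 30.0 ± 7.17 CPM in the double deletion, 37.7 ± 15.7 CPM in ∆hH2Az, 11.1 ± 2.53 CPM in ∆set-7 and 8.02 ± 2.60 CPM in the wild type (SD, n = 3 each). It rose over the wild type by 2.24 in ∆hH2Az (adjusted p = 0.00111) and by 1.91 in the double deletion (adjusted p = 0.00279), whereas neg-1 was high in ∆hH2Az alone. acw-12, which overlaps another gene, rose by 2.35 in ∆hH2Az (adjusted p = 0.00480). ncw-1, which also overlaps another gene, fell by 1.81 in the double deletion against the wild type (adjusted p = 0.00624), and acw-5 fell by 1.80 in the double deletion against ∆set-7 (adjusted p = 0.00138). In the double deletion against ∆hH2Az, the comparison in which neg-1 was low, edgeR called 1.45% of all genes. There 0 of the 27 were called by edgeR, DESeq2 or limma-voom and 2 had an unadjusted edgeR p under 0.05. With the libraries tagged 920 alone 14 of the 27 were called in that comparison, where 2478 of all 8414 genes tested were called.

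Genes of conidia, the other cell form a culture in light can hold, gave calls in both directions. The summed level of 6 conidiation genes was 359 to 1024 CPM in the double deletion, 151 to 811 CPM in ∆hH2Az, 58.3 to 203 CPM in ∆set-7 and 86.1 to 134 CPM in the wild type, and none of the 6 was at 0 in any library. One gene, con-8, made up 88.6 to 98.8% of that sum in the double deletion, 88.0 to 98.7% in ∆hH2Az, 25.4 to 75.5% in ∆set-7 and 34.1 to 54.1% in the wild type. Without con-8 the sum was 12.2 to 41.1 CPM in the double deletion, 10.9 to 18.1 CPM in ∆hH2Az, 22.3 to 152 CPM in ∆set-7 and 55.4 to 88.5 CPM in the wild type, so that both strains without H2A.Z lay below the wild type. Of the 5 tested, 1 rose and 2 fell in ∆hH2Az against the wild type (31.1% of all genes called). con-8 rose by 3.60 (adjusted p = 0.00217), eas, the hydrophobin of the conidial surface, fell by 6.38 (adjusted p = 0.00495), and fl, a regulator of conidiation, fell by 1.26 (adjusted p = 0.0462, lost in 8 of 22 alternatives with adjusted p up to 0.193). In the double deletion against the wild type con-8 (3.60, adjusted p = 0.00229) and con-6 (3.93, adjusted p = 0.0219) rose, the call of con-6 being lost without replicate 1 of the double deletion or replicate 2 or 3 of the wild type, with adjusted p up to 0.0716. con-6 overlaps another gene. Without ∆set-7 replicate 3 this count of 2 was 4, and the all-gene count was 2725, beside 2551 of 8372 with all libraries. con-10 was called in none of the 5 comparisons, and con-13 was not tested. The 2 genes of filamentous hyphae were present throughout: hex-1, for the Woronin body protein and overlapping another gene, averaged 994 ± 493 CPM in the double deletion, 661 ± 203 CPM in ∆hH2Az, 1732 ± 441 CPM in ∆set-7 and 1570 ± 192 CPM in the wild type. hex-1 fell by 1.25 in ∆hH2Az (adjusted p = 0.0269, up to 0.0870 without replicate 1 or 3 of ∆hH2Az or 1 or 2 of the wild type), and so, the hyphal fusion gene, was called in none of the 5 comparisons. Within the strains without H2A.Z, con-8 separated the tags as neg-1 did, with 404, 318 and 1012 CPM in the double deletion and 795, 800 and 133 CPM in ∆hH2Az. The part of these cell forms in the levels of gh61-9 and neg-1 was not tested.

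The neighbours of gh61-9 gave calls in both directions. Of the 5 genes on each side 9 were tested. In ∆hH2Az against the wild type 3 rose and 2 fell (31.1% of all genes called), and in the double deletion against the wild type 2 rose and 2 fell (30.5%). In ∆set-7 against the wild type edgeR called 1.03% of all genes. Of the 9 neighbours 0 were called there by edgeR, DESeq2 or limma-voom, and 0 had an unadjusted edgeR p under 0.05. NCU05968, whose start faces that of gh61-9, had 20.3 to 23.6 CPM in the double deletion, 14.4 to 25.2 CPM in ∆hH2Az, 8.98 to 12.2 CPM in ∆set-7 and 8.39 to 9.19 CPM in the wild type. It rose over the wild type by 1.29 in ∆hH2Az (adjusted p = 0.00191) and by 1.32 in the double deletion (adjusted p = 0.00176), opposite to gh61-9. On the other side NCU10045 had a log2 fold change of -1.10 in ∆hH2Az (adjusted p = 0.0466, lost in 9 of 22 alternatives, any 1 library of ∆hH2Az left out among them, with adjusted p up to 0.164) and fell by 1.34 in the double deletion (adjusted p = 0.0221, lost without replicate 3 of the double deletion or replicate 1 or 2 of the wild type). NCU10046 rose by 1.71 in ∆hH2Az (adjusted p = 0.000500), pan-2 fell by 1.81 (adjusted p = 0.00273) and NCU05965 rose by 1.73 (adjusted p = 0.0102), and pan-2 and NCU05965 each overlap another gene. NCU05966 fell by 1.51 in the double deletion against ∆set-7 (adjusted p = 0.0152, up to 0.0588 without replicate 1 or 2 of the double deletion). NCU05964, NCU05967 and NCU10049 were called in none of the 5 comparisons, and NCU14179 had 0 reads.

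Around neg-1 few genes were expressed. Its 5 neighbours on the side of its gene end had 7 to 31 reads each over the 12 libraries and were not tested, and on the other side 4 of 5 were tested. NCU04394, the nearest of these, averaged 0.610 ± 0.437 CPM in the double deletion and 0.636 ± 0.0525 CPM in ∆hH2Az, against 0.697 ± 0.412 CPM in the wild type. NCU04393 and NCU04392 were called in none of the 5 comparisons, and NCU04391 was not tested. The single neighbour called was col-22, 15 kb away, at 86.0 ± 9.34 CPM in the double deletion, 74.9 ± 9.66 CPM in ∆hH2Az, 15.9 ± 1.55 CPM in ∆set-7 and 18.3 ± 1.64 CPM in the wild type. It rose over the wild type by 2.04 in ∆hH2Az (adjusted p = 2.28e-05, 31.1% of all genes called) and by 2.23 in the double deletion (adjusted p = 1.37e-05, 30.5% called), and it was not among the calls of the double deletion against ∆hH2Az (0.20, adjusted p = 0.845).

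**Figure D4:**
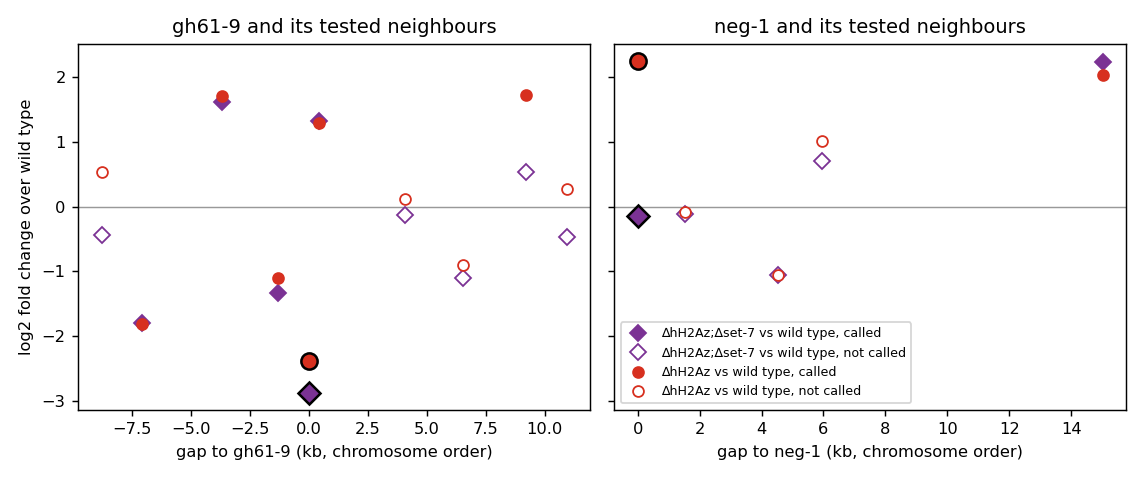
Log2 fold change over the wild type in the double deletion (purple diamonds) and ∆hH2Az (red circles) of the tested genes among the 5 on each side of gh61-9 (left) and neg-1 (right), against the gap to that gene in kb, filled where edgeR called the gene and with gh61-9 and neg-1 outlined in black at 0. Called neighbours of gh61-9 lie on both sides of 0, and col-22 at 15 kb is the single called neighbour of neg-1.

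The genes most like gh61-9 across the 12 libraries, by Pearson's r of log2 CPM among 7851 genes that averaged at least 1 CPM, were gh61-2 (r = 0.986), NCU04984 (0.984), NCU07088 (0.984), NCU07865 (0.982) and NCU02344 (0.978). Of these 5, 2 are gh61 genes. NCU07088 had 0.485, 0.370 and 0.903 CPM in the double deletion, 2.20, 3.01 and 1.01 CPM in ∆hH2Az, 38.3, 42.3 and 25.3 CPM in ∆set-7 and 25.8, 27.4 and 16.2 CPM in the wild type. It repeats the gap of gh61-9 between strains with and without H2A.Z on a larger scale. NCU07865 averaged 7.75 ± 1.24 CPM in the double deletion, 8.15 ± 1.41 CPM in ∆hH2Az, 33.7 ± 2.82 CPM in ∆set-7 and 32.3 ± 1.66 CPM in the wild type (SD, n = 3 each). The libraries share strain and tag, and over the 8 tagged 920 the 5 values of r were 0.983 to 0.990. The ranks depended on the measure: 0 of these 5 were among the first 5 by Spearman's rho, and 0 by Pearson's r over the libraries tagged 920.

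The genes most like neg-1 were NCU06009 (r = 0.977), NCU05501 (0.970), NCU00873 (0.952), NCU16917 (0.938) and NCU01636 (0.938). Of these, 2 were among the first 5 by Spearman's rho and 2 by Pearson's r over the libraries tagged 920. NCU06009 had 16.3, 11.4 and 40.2 CPM in the double deletion, 99.3, 103 and 40.7 CPM in ∆hH2Az, 33.0, 34.4 and 28.6 CPM in ∆set-7 and 26.2, 27.9 and 26.2 CPM in the wild type. It had the high level of neg-1 in ∆hH2Az and the same place of replicate 3, lower than the other pair in ∆hH2Az and higher in the double deletion. NCU05501 averaged 17.0 ± 13.4 CPM in the double deletion, 77.1 ± 30.9 CPM in ∆hH2Az, 24.4 ± 9.28 CPM in ∆set-7 and 15.8 ± 4.12 CPM in the wild type. All 5 lie on other chromosomes than neg-1, and the RefSeq table gives none of them a symbol.

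**Figure D5:**
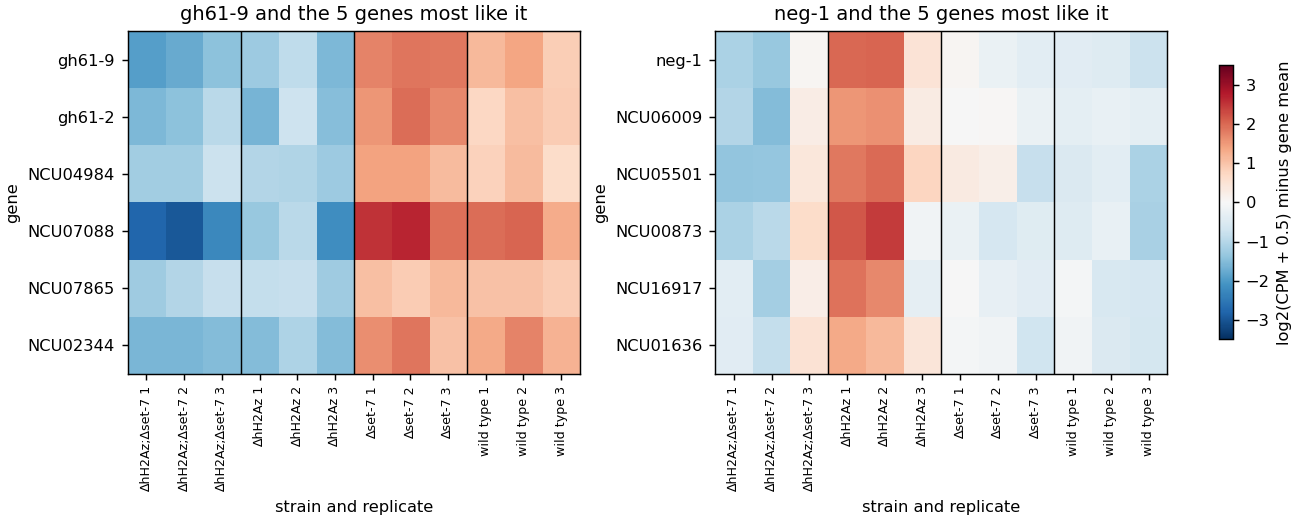
Log2 of CPM plus 0.5, minus each gene's mean over the 12 libraries, for gh61-9 (left) and neg-1 (right) with the 5 genes of highest Pearson r, with libraries by strain and replicate along the horizontal axis and red for higher and blue for lower values. The left set is blue in all 6 libraries without H2A.Z, and the right set is red in replicates 1 and 2 of ∆hH2Az. Replicate 3 of ∆hH2Az is paler, and for NCU00873 and NCU16917 it lies below the gene mean, on the blue side.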

How the data were processed

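RNA-seq read counts per gene for 12 Neurospora crassa libraries (4 strains, 3 each) were used as deposited. Per the file headers the authors counted reads on NC12 genes with featureCounts 1.6.2, without a strand option. The library kit was stranded, per the labels. No source used here names the RNA aligner. Of 10398 genes, 10397 matched RefSeq by position, and 2406 overlap another gene. The 42 ChIP samples are not analysed here.

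From the counts, edgeR 4.0.16 (R 4.3.3) gave TMM-scaled CPM and a robust quasi-likelihood fit of all 12 libraries without covariates, two-sided, on 8372 genes that passed filterByExpr by strain, with Benjamini-Hochberg adjustment over them at 0.05. The fit was tested on simulated data. Fold changes are first strain over second, with Wald standard errors. Alternatives were other scalings and filters, DESeq2 1.42.0, limma 3.58.1 (voom), a replicate or tag block, fewer libraries and each library left out. Same-numbered libraries of ∆set-7 and the wild type deviated together from their strain means, at correlations of 0.431, 0.167 and 0.245 across genes. That pairing is read from the data and not from the labels. The values reported for that comparison are from the fit without pairs. The replicate number as a block over all 12 libraries was an alternative. No 2 libraries of 1 strain agreed within sampling noise.

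The members and the gene lists were chosen with earlier results of these data known. Named genes were the gh61 genes averaging at least 1 CPM, per other list and comparison the 2 called genes of largest change averaging at least 1 CPM, all regulators, markers and neighbours, and the 5 genes of highest Pearson r with each member (log2 CPM, prior count 2). Totals of 13581416 to 19720473 reads set the precision, and counting error is only part of the spread. No sequence is printed.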

Additional observations from a re-analysis of the deposited data

Results flagged for a closer look

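For neg-1, the log2 fold change for loss of SET-7 was positive where H2A.Z was present and negative where it was absent. The positive value was smaller than its SE, so it gives no clear direction. The negative value is from the comparison by which neg-1 was chosen. Every library of ∆set-7 lay above every library of the wild type, by 9.35 against 9.19 CPM at the nearest, as for 8.19% of tested genes. Every library of the double deletion lay below every library of ∆hH2Az, as for 6.04% of tested genes. The 2 log2 fold changes, -2.40 (SE 0.434) for the double deletion against ∆hH2Az and 0.39 (SE 0.440) for ∆set-7 against the wild type, differed by -2.79 (SE 0.618), and the difference was not tested. It was -3.73 among the libraries tagged 920 and -0.86 among the third libraries.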

How the results depend on the processing

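With the libraries tagged 920 alone, gh61-9 moved to -3.14 in the double deletion against the wild type and to -0.81 against ∆hH2Az, and neg-1 to -0.85 in the double deletion against the wild type, -3.37 against ∆hH2Az and -1.24 against ∆set-7, with a departure from additivity of -3.76. All-gene calls were then 4648 in ∆hH2Az, 904 in ∆set-7 and 4578 in the double deletion against the wild type, and 2478 and 4797 in the double deletion against ∆hH2Az and ∆set-7. DESeq2 called 159 genes in ∆set-7 against the wild type and 292 in the double deletion against ∆hH2Az, where a mean of at least 5 CPM left 74 and a fit of the 2 strains alone 48. The main counts were 2604, 86, 2551, 121 and 2486. With the plain total count gh61-9 averaged 137.5 CPM in ∆set-7. Upper-quartile scaling moved the median of all genes to -0.12 in ∆hH2Az against the wild type.

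Leaving out 1 library at a time, neg-1 in the double deletion ranged between -0.75 and 0.12 against the wild type, with its sign turned at 0.05 without replicate 1 and 0.12 without replicate 2, and between -1.13 and -0.27 against ∆set-7. The counts of calls ranged between 1636 and 2990 in ∆hH2Az, 43 and 113 in ∆set-7 and 1618 and 2843 in the double deletion against the wild type, between 62 and 473 in the double deletion against ∆hH2Az and between 1643 and 2797 against ∆set-7. The lowest counts came without wild-type replicate 2, without ∆hH2Az replicate 1 for the comparison with ∆hH2Az, and without ∆set-7 replicate 1 for that with ∆set-7. gh61-9 kept its direction in these fits, at -2.59 to -2.23 in ∆hH2Az and 0.57 to 0.83 in ∆set-7 against the wild type. The cause was not tested.

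In ∆set-7 against the wild type, where every same-numbered pair correlated above 0.1, the replicate block gave 0.70 for gh61-9, 0.38 for neg-1 and 76 calls, and it changed no call of a listed gene. In the other 4 comparisons some pairs correlated at 0.1 or below, down to -0.35, so the libraries there were not read as pairs. Same-numbered libraries do share a label tag, and 5 of 12 libraries correlated best with their own number. With the replicate number as a block, gh61-9 had -2.39 and neg-1 2.24 in ∆hH2Az against the wild type, neg-1 had -2.35 in the double deletion against ∆hH2Az, and 2644, 76, 2627, 102 and 2629 genes were called. The gh61 family then had 3 calls in ∆hH2Az against the wild type, beside 5 without the block.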

Other observations

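gh3-3, a beta-glucosidase gene, lies 10.9 kb from gh61-5 on chromosome III, 15.2 kb from the end of the annotated genes, and shared its rise in the double deletion against ∆hH2Az. gh3-3 averaged 7.33 ± 3.23 CPM in the double deletion, 0.959 ± 0.163 CPM in ∆hH2Az, 8.76 ± 1.67 CPM in ∆set-7 and 3.53 ± 0.864 CPM in the wild type (SD, n = 3 each). It rose by 2.93 in the double deletion against ∆hH2Az (edgeR adjusted p = 0.00171) and fell by 1.86 in ∆hH2Az against the wild type (adjusted p = 0.00393). Of the 3 genes between gh61-5 and gh3-3, all tested, 2 were called higher in the double deletion against ∆hH2Az, NCU10427 and NCU08756, both singled out after their values were seen. Of all tested genes 1.45% were called in that comparison.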
